A study of Mus musculus with 66 samples.

Results

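Solute carriers are membrane proteins that move small molecules and ions across the plasma membrane and the membranes of organelles. In the cerebellum they clear glutamate from synapses, load transmitters into vesicles, set the chloride and zinc levels of neurons, bring sugars, amino acids and vitamins into cells, and exchange metabolites between the cytosol and mitochondria. They are grouped into numbered families by sequence, so that the number after Slc names the family and the last number the member. The genes described here were those whose symbol starts with Slc and a digit, taken from probes that carried a single symbol, with no filter on signal. There were 65 such genes from 31 families, measured by 71 of the 8448 probes, among 4209 single-symbol genes in all. Each was put in a class, singly or by its family. Classes were named for what is carried or, for the mitochondrial class, for the site. They were transmitter (4 genes), sugar (5), amino acid (11), ion (21), mitochondrial (8), nucleotide sugar (3) and other (13) carriers.

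Cerebellum was taken from 66 male and female C57BL/6 mice, a common inbred strain, and the RNA of each mouse was hybridized to a separate filter of cDNA probes. The adults were 6, 16 or 24 months of age and were fed ad libitum (AL, 10, 10 and 9 mice) or were kept from early adulthood on caloric restriction (CR, 9, 10 and 8 mice). A further 5 AL mice of 17-21 days and 5 of 33-44 days were young. The CR males of the oldest cohort were all 673 days old, the AL males of that cohort 719 to 743 days, so diet and age cannot be told apart in those males. Sex, age and diet together made 16 groups of 2 to 5 mice.

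Every value is a Z score, the place of a probe in the distribution of its own array, where 0 is the mean of all probes and 1 is their SD. Differences are in Z units and cannot be turned into folds, a Z score cannot be read as a transcript amount across probes, and the precision is limited by the number of arrays and the spread between them. In whole cerebellum, fewer cells of a type and less RNA per cell cannot be told apart. The median correlation of an array with the others was 0.968 over all probes, and 3 arrays stood apart with median correlations of 0.695 (male 16-month CR replicate 2), 0.701 (female 16-month CR replicate 2) and 0.82 (female 24-month CR replicate 2). They were left out, which kept 63 arrays. On the first pair, the probes at 1 of 22 regularly repeating positions of the probe list averaged -2.7 and -2.69, against 0.309 on the kept arrays. The 1 solute carrier probe at that position, for the mitochondrial pyrimidine nucleotide carrier Slc25a36, read -2.62 and -2.64 there, against a mean of -0.339 on the kept arrays. Over the 71 solute carrier probes, the median distance from the kept mean was 0.174, 0.215 and 0.257 on the 3 arrays, and 0.0587 to 0.229 on the kept ones.

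Probe names of such filters can be wrong, and the data bear on this. Over 561 genes with several probes, the mean Z scores of the first and second probe correlated by 0.114 across genes, with a median gap of 0.736. Xist, a transcript of female cells, had 1 probe, which read from -1.31 to -0.71 (median -0.97) on 33 female arrays and from -1.39 to -0.67 (median -1.04) on 30 male arrays, so that the sexes overlapped over nearly their whole range. Of 54 listed marker genes of cerebellar and neighbouring cell types only 9 had a single-symbol probe, and none of these marked granule cells, astrocytes, Bergmann glia or oligodendrocytes. The Purkinje markers Calb1 and Car8 had mean Z scores of -0.015 and 0.841, and the microglial pair C1qa and C1qb -1.5 and 0.62. A gene name below therefore stands for the probe as annotated.

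Among the solute carriers themselves, 5 genes had several probes, and these did not read alike. The probes of Slc38a9, a lysosomal arginine transporter, had mean Z scores of 1.06 and -1.7. Those of Slc38a10 read -1.76 and 0.296, those of the choline transporter-like Slc44a1 0.136 and 1.26, and those of the neuronal glutamine transporter Slc38a1 -1.39, -0.579 and 0.0844. The closest pair belonged to Slc1a3, the glutamate transporter GLAST of Bergmann glia, at 0.229 and -0.16. The probes of a gene were averaged in all that follows.

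**Figure D1:**
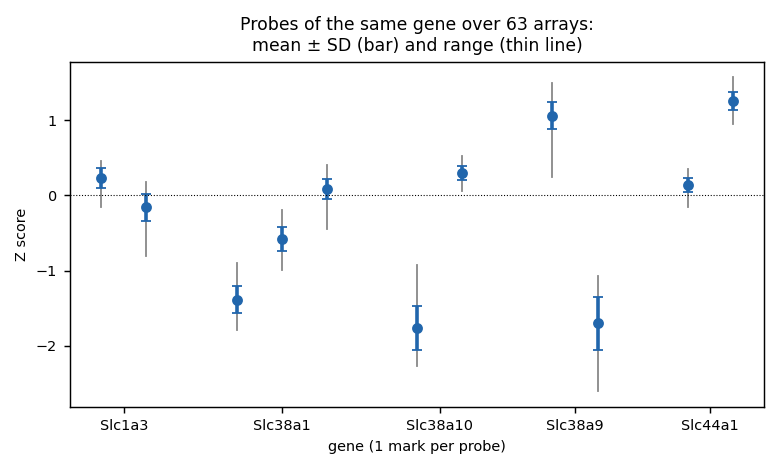
Z scores of the individual probes of the 5 solute carrier genes with more than 1 probe, over 63 arrays; points and thick bars give the mean ± SD over arrays, thin lines the range. The gap between the probes of a gene runs from 0.389 (Slc1a3) to 2.75 (Slc38a9), and exceeds the SD between arrays of each probe shown.

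The median of the solute carriers' mean Z scores was -0.253, beside -0.122 over the 4209 single-symbol genes and -0.0281 over all 7782 rows tested, of which 3573 were probes without a single symbol. Of the 65, 23 (35.4%) lay above 0, beside 44.5% of the single-symbol genes and 48.7% of all rows. These are places within the arrays, given as a description and not tested. Levels were steady between mice: the median within-group SD was 0.163 (0.167 over all rows), and the mean Z scores of different solute carriers had an SD of 0.791.

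The transmitter carriers spanned the widest range. Slc17a9, which loads ATP into vesicles, had the highest mean Z score of all 65 at 2.28, exceeded by 0.668% of all rows. It varied little, from a lowest array of 2 to a highest of 2.53. Slc17a6, the vesicular glutamate transporter VGLUT2, averaged 0.199 and had the largest within-group SD of the 65 (0.354), with arrays from -1.04 to 0.72. Slc1a3 averaged 0.0348. Slc10a4, a vesicle protein of cholinergic and monoaminergic neurons, averaged -1.5 and was below 0 on every kept array. These were the 4 of 21 listed transmitter carriers that had a single-symbol probe, so that the glycine transporters and VGLUT1 were not analysed here.

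Among sugar carriers, none of the 5 had a mean Z score above 0. They ran from -0.0608 for Slc2a4, the insulin-responsive glucose transporter, through -0.123 for Slc50a1 and -0.201 for the fructose transporter Slc2a5, to -0.79 for Slc37a3 and -0.968 for Slc45a4. Of the 11 amino acid carriers, 2 were above 0: Slc7a7, a light chain that exchanges cationic for neutral amino acids, at 0.98, and Slc15a4, a lysosomal carrier of histidine and peptides, at 0.549. The lowest were Slc38a3, the glutamine transporter SNAT3 of astrocytes, at -1.29 and Slc1a4, a neutral amino acid exchanger, at -1.6. In between lay Slc38a2 (-0.156), Slc1a5 (-0.54), the creatine transporter Slc6a8 (-0.893) and the taurine transporter Slc6a6 (-1.12).

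The 21 ion carriers were spread about 0, with 10 above it. The zinc importer Slc39a4 was highest at 1.27, followed by the potassium chloride cotransporter Slc12a4 at 0.903 and Slc30a3, which fills synaptic vesicles with zinc, at 0.793. The lowest were the magnesium carrier Slc41a3 (-1.02), the zinc carrier Slc39a11 (-1.26) and the sodium-driven bicarbonate exchanger Slc4a8 (-1.37). The sodium potassium chloride cotransporter Slc12a2, which raises neuronal chloride, averaged -0.692, the sodium calcium exchanger Slc8a1 -0.33 and the iron exporter Slc40a1 0.158. Of the 8 mitochondrial carriers, 2 lay above 0, the glutamate carrier Slc25a22 at 0.494 and Slc25a48 at 0.211, while the phosphate carrier Slc25a3 was at -0.0027. The iron importer Slc25a37 (-0.9) and Slc25a44 (-1.33), a carrier of branched-chain amino acids, were lowest. The 3 carriers of nucleotide sugars into the Golgi and their relatives ran from 0.939 (Slc35c2) through -0.432 (Slc35e1) to -1.48 (Slc35a2, for UDP-galactose). Of the remaining 13, the choline transporter-like Slc44a2 was highest at 1.61 and Slc5a6, which takes up biotin and pantothenate, lowest at -1.53, below the vitamin C transporter Slc23a2 at -0.8.

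**Figure D2:**
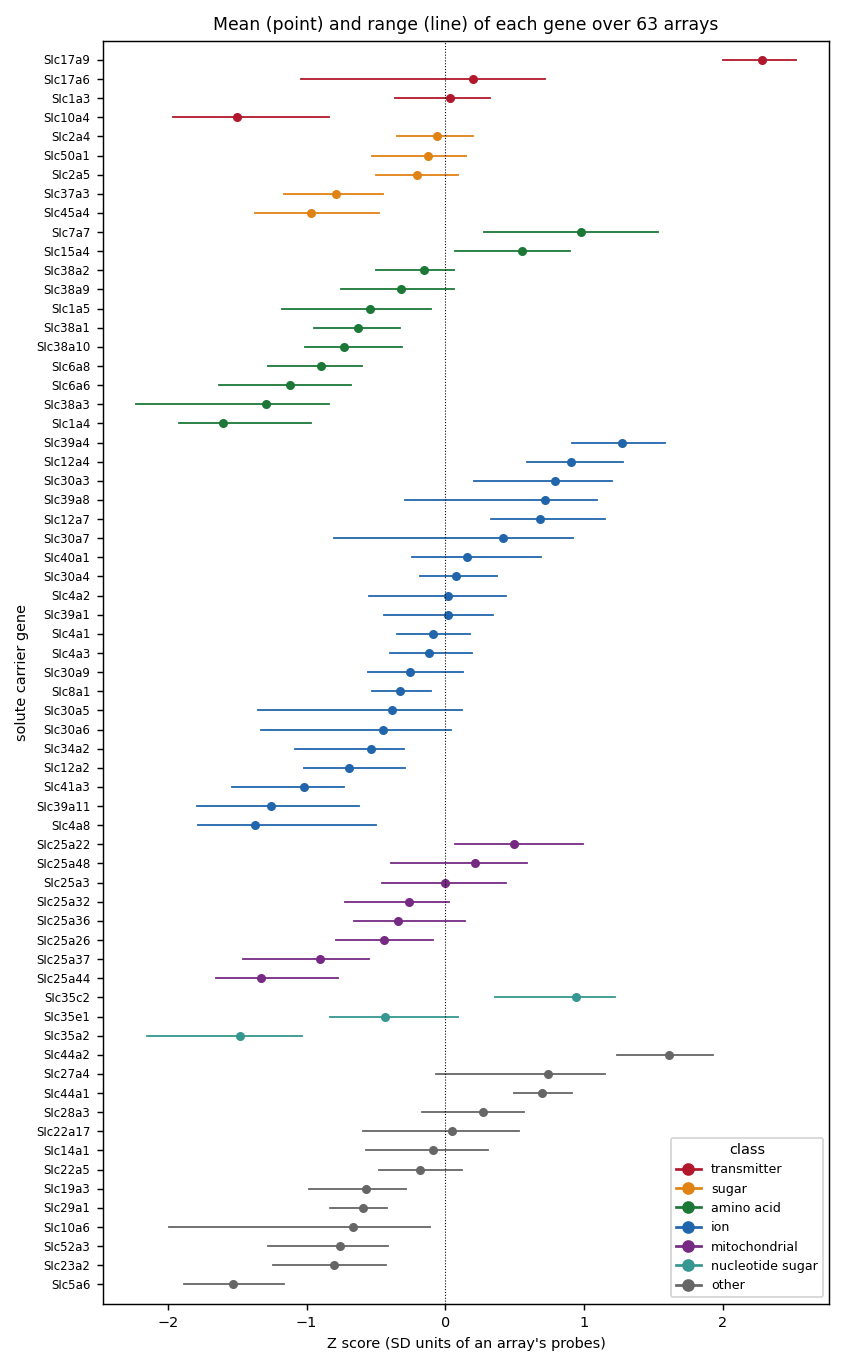
Mean Z score (point) and range over 63 arrays (line) of each of the 65 solute carriers, coloured and ordered by class. The x axis is in SD units of an array's probes. Slc17a9 stands alone near 2.28, none of the sugar carriers reaches a mean of 0, and Slc17a6 and Slc10a6 have the longest lines.

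The study compared 3 adult ages. From the youngest to the oldest, 6 to 24 months, in AL mice no solute carrier passed the test. Limma called 0 of 65 at an adjusted p under 0.05 and 0 at an unadjusted p under 0.05, against 0% and 2.49% of all rows. The median difference of the 65 was 0.0035 (24 minus 6 months), 34 were higher (49.8% of all rows were) and 31 lower, and the median 95% interval was the difference ± 0.15 Z units. With array weights on all 66 arrays 11 reached an unadjusted p under 0.05, beside 16.5% of all rows, and limma again called 0 of the 65. Among the transmitter carriers, Slc17a9 ran from 2.18 to 2.46 (median 2.255) at 6 months, 2.16 to 2.38 (2.31) at 16 months and 2.14 to 2.51 (2.34) at 24 months, a difference of 0.0442 between the outer ages (95% interval -0.0589 to 0.147). The 3 ranges lay almost on top of each other. Slc17a6 was far less certain, with a difference of 0.0978 (-0.216 to 0.412). Slc1a3 ran from -0.075 to 0.175 (median 0.048) at 6 months, -0.17 to 0.235 (-0.015) at 16 months and -0.19 to 0.14 (-0.04) at 24 months, a difference of -0.102 (-0.226 to 0.0229), and of -0.0452 by its brighter probe. The first of these was the third smallest p of the 65 (unadjusted 0.108, limma adjusted p = 1), after Slc38a3 (0.179 ± 0.0925, SE) and the fatty acid carrier Slc27a4 (0.158 ± 0.084, SE), whose unadjusted p were 0.0584 and 0.0654. Without 1 outlying female of 6 months, described next, Slc38a3 differed by 0.0857.

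The steps between neighbouring ages in AL mice gave no call either. From 6 to 16 months limma called 0 of 65 (0% of all rows), and 1 had an unadjusted p under 0.05 (1.34% of all rows): Slc38a3, from -1.42 to -1.21 (difference 0.205 ± 0.0897, SE; unadjusted p = 0.0264, limma adjusted p = 1). Its values at 6 months ran from -2.23 to -1.06 (median -1.365) and at 16 months from -1.48 to -0.91 (median -1.245), so the groups overlapped and 1 female at 6 months stood far below all others. Without that mouse the difference was 0.112 and the count at an unadjusted p under 0.05 was 0, and without another 6-month female (replicate 5) that count was 8, beside 5.24% of all rows. Next came Slc12a2 (0.132 ± 0.0675, SE) and the zinc carrier Slc30a6 (-0.194 ± 0.101, SE), which was -0.113 without 1 female of 16 months (replicate 5). From 16 to 24 months limma called 0 (0%), and 2 had an unadjusted p under 0.05 (3.92% of all rows). The riboflavin transporter Slc52a3 ran from -1.1 to -0.41 (median -0.655) at 16 months and from -1.28 to -0.64 (median -0.78) at 24 months, a difference of -0.223 ± 0.0835 (SE). Slc6a8 differed by -0.121 ± 0.0577 (SE), with values from -1.07 to -0.65 and from -1.16 to -0.85, and Slc27a4, next in order of p, by 0.167. The groups overlapped for Slc52a3 and Slc6a8, and both limma adjusted p were 1.

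In CR mice the same comparisons were made with 9, 8 and 7 kept arrays, and limma called 0 of 65 in each (0% of all rows each time). From 6 to 16 months 1 solute carrier had an unadjusted p under 0.05 (2.13% of all rows), Slc4a8, at -1.43 and -1.2 (0.237 ± 0.0989, SE). Its 16-month values reached from -1.63 to -0.5 and covered the whole 6-month range of -1.59 to -1.26. Without the female at -0.5 (replicate 5) the difference was 0.135 (unadjusted p = 0.145 in limma). From 16 to 24 months there were 2 (2.51% of all rows). Slc30a9, a zinc carrier, lay between -0.23 and -0.14 (median -0.165) in the 8 mice of 16 months and between -0.56 and -0.18 (median -0.33) in the 7 of 24 months. The difference was -0.175 ± 0.0685 (SE), with an unadjusted p of 0.0137 and a limma adjusted p of 0.999. With the position correction on all 66 arrays it was -0.0924. Slc2a4 ran from -0.12 to 0.12 and then from -0.34 to 0.05 (-0.132 ± 0.063, SE). The groups overlapped for both genes. From 6 to 24 months there was 1 (1.12% of all rows), Slc5a6, from -1.62 to -1.44 (0.174 ± 0.0813, SE), followed by Slc25a3 (0.135 ± 0.0849, SE; unadjusted p = 0.117 in limma). The genes next in order of p in these steps were Slc40a1 (-0.123, and -0.052 without 1 male of 6 months, replicate 1) and the anion exchanger Slc4a1 (0.115, and 0.0643 with array weights), then the potassium chloride cotransporter Slc12a7 (-0.128, and between -0.0297 and -0.0844 under 7 of the other settings), and from 6 to 24 months Slc4a8 (0.164). Put back, the left-out arrays made the last 0.257 (unadjusted p = 0.029 in limma). With the 3 arrays put back limma also called 0 in all 3 steps, and the counts at an unadjusted p under 0.05 became 3, 4 and 2, beside 8.74%, 9.82% and 1.53% of all rows. Of the 9 measured cell type markers limma called 0 in any comparison. The erythroid heme synthesis gene Alas2 had an unadjusted p under 0.05 in 5 of them, being 0.228 higher at 16 than at 6 months in AL mice and differing by -0.223 from 16 to 24 months in CR mice (limma adjusted p = 1 and 0.999). The meningeal marker Dcn differed by -0.149 from 6 to 24 months in CR mice and by -0.132 between CR and AL mice of 24 months (limma adjusted p = 1 and 0.999). The other measured markers of these cells, Hba-a1 for red blood cells and Igf2 and Col1a1 for meninges, had no unadjusted p under 0.05 in limma. Averaged over the 3 meningeal genes, CR mice read 0.0739 at 6 and 0.00452 at 24 months, and AL mice 0.0367 at 24 months. Averaged over the 2 red blood cell genes, AL mice read -0.646 at 6 and -0.527 at 16 months. CR mice read -0.551 at 16 and -0.73 at 24 months. The part of Alas2 or Dcn in the values of the solute carriers was not tested.

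Diet at a given age was compared next, on the same mice, so these values share samples with those above. At 6 months limma called 0 of 65 (0% of all rows) and 0 had an unadjusted p under 0.05 (0.655% of all rows). The smallest p belonged to Slc40a1, which ran from 0.02 to 0.69 (median 0.16) in CR and from -0.24 to 0.28 (median 0.19) in AL mice (0.114 ± 0.0624, SE). Without the male at 0.69 (replicate 1) it differed by 0.043 (unadjusted p = 0.454 in limma). Next came the carnitine transporter Slc22a5 (0.0872) and Slc39a11 (-0.145, and -0.082 without 1 AL male, replicate 2). At 16 months limma called 0 (0%), and 1 had an unadjusted p under 0.05 (2.13%), the urea transporter Slc14a1. It ran from -0.35 to 0.03 (median -0.175) in 8 CR mice and from -0.2 to 0.15 (median 0.04) in 10 AL mice, lower in CR by -0.178 ± 0.0772 (SE; unadjusted p = 0.0255, limma adjusted p = 1). With the 2 CR arrays of that age put back it was -0.127, and its unadjusted p was 0.1. Next came Slc39a4 (-0.131) and Slc40a1 (-0.12, and -0.079 with all 66 arrays). At 24 months limma called 0 (0%), and 1 had an unadjusted p under 0.05 (2.25%), Slc30a9, at -0.355 in CR and -0.218 in AL mice (-0.137 ± 0.0669, SE). In females alone, which leaves out the younger CR males, it differed by -0.0945, and with the left-out array put back by -0.0696 (unadjusted p = 0.374). Slc1a3 differed by 0.111 ± 0.0684 (SE) at that age, and by -0.023 in females alone, while Slc2a5 differed by 0.107, and by 0.0125 in females alone. The difference between diets in the change from 6 to 24 months was called by limma for 0 (0%), with 0 at an unadjusted p under 0.05 (0.9%). The smallest p belonged to Slc30a9 (-0.167), Slc5a6 (0.197) and Slc25a37 (0.187), and the largest values were 0.22 for Slc4a8 and -0.227 for Slc38a3. With all 66 arrays the value of Slc30a9 was -0.1 (unadjusted p = 0.349 in limma), and in females alone those of Slc5a6 and Slc25a37 were 0.339 and 0.297.

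**Figure D3:**
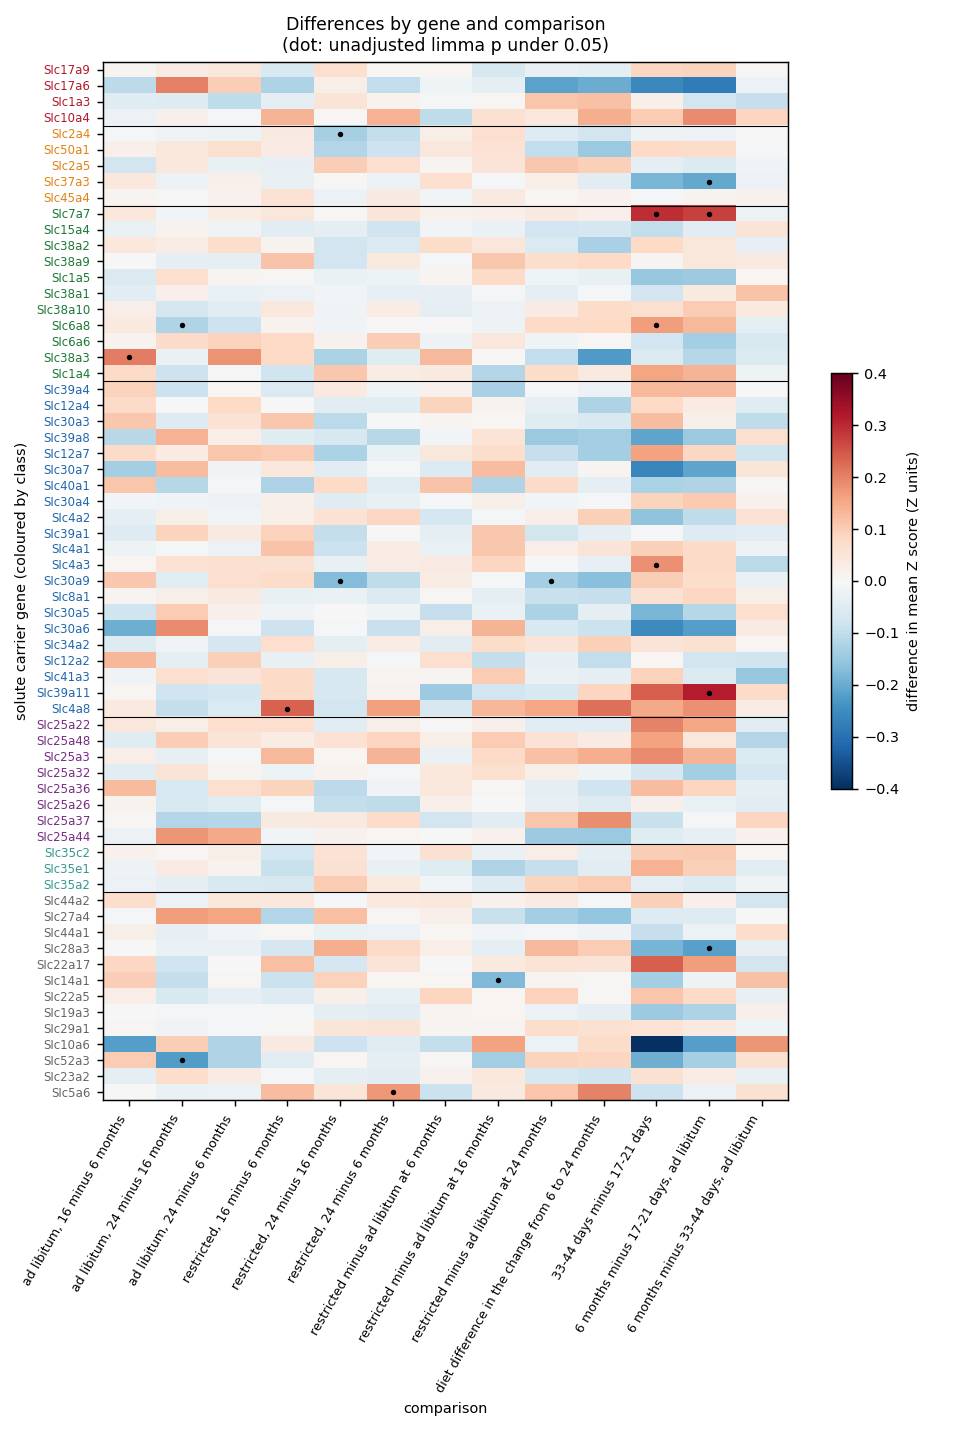
Differences in mean Z score of the 65 solute carriers (rows, grouped and coloured by class) in 13 comparisons (columns), on a colour scale from -0.4 to 0.4 Z units; dots mark the 16 values with an unadjusted limma p under 0.05. The dots are scattered over the classes, none has an adjusted p under 0.05, and the strongest colours stand in the comparisons with mice of 17-21 days.

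By class, the direction was mixed in most comparisons. The 21 ion carriers had 12 higher and 9 lower from 6 to 24 months in AL mice and 7 higher and 14 lower in CR mice, where 50.8% of all rows were higher, with medians of 0.02 and -0.00658. At 24 months, 16 of the 21 were lower in CR than in AL mice (median -0.0331), whereas 52.6% of all rows were higher, and 1 of the 21 (Slc30a9) had an unadjusted p under 0.05. At 16 months 13 were higher and 8 lower in CR mice (median 0.0245), and at 6 months 11 and 10 (0.00375). Within CR mice, 14 were higher and 7 lower from 6 to 16 months (median 0.0407, 47.7% of all rows higher). From 16 to 24 months 4 were higher and 17 lower (median -0.045, 52% of all rows higher). The comparisons with CR mice of 24 months share the same 7 kept arrays, whose males were younger than the AL males. The 11 amino acid carriers had 5 higher and 6 lower from 6 to 24 months in either diet. The 8 mitochondrial carriers had 5 higher and 3 lower in either diet, with medians of 0.0319 and 0.0155. The 5 sugar carriers had medians of 0.0162 and -0.0238. Over all 13 comparisons, no class had a median difference beyond -0.0825 or 0.0975, the bounds coming from the other and the nucleotide sugar carriers in young mice.

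Young mice differed more, though again in no single solute carrier past the threshold. Between 17-21 and 33-44 days limma called 24 of 7782 rows (0.308%) and 0 of 65 solute carriers, and 3 of these had an unadjusted p under 0.05, against 13.4% of all rows. Between 17-21 days and 6 months limma called 32 rows (0.411%) and 0 solute carriers, with 4 at an unadjusted p under 0.05, against 10.7% of all rows. From 33-44 days to 6 months the limma calls numbered 0 (0%), and 0 had an unadjusted p below 0.05 (1.72% of rows), the first in order of p being Slc38a1 (0.115), Slc4a3 (-0.108) and Slc41a3 (-0.151). These rested on the few mice of 33-44 days. Slc38a1 was 0.0447 without the first female and 0.185 without the second, and 0.234 by its brightest probe, and the other two were -0.0703 and -0.0937 without the first. Slc7a7 was among the leading genes in both comparisons with mice of 17-21 days, which share those 5 mice. Its values at 17-21 days were 0.81, 0.82 and 0.9 in females and 0.28 and 0.83 in males, and at 33-44 days they were 1.07 and 1.05 in females and 0.81, 0.75 and 1.23 in males. The groups overlapped, and 1 young male stood far below the rest. The difference was 0.296 ± 0.133 (SE; unadjusted p = 0.0305, limma adjusted p = 0.332), and to 6 months, where values ran from 0.75 to 1.22, it was 0.273 ± 0.114 (SE; limma adjusted p = 0.426).

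The other leading genes were of different classes. Slc6a8 read -0.95, -0.83 and -1.09 in females and -1.28 and -0.87 in males of 17-21 days, and -0.81 and -1 in females and -0.77, -0.82 and -0.79 in males of 33-44 days, a difference of 0.167 ± 0.0807 (SE). The chloride bicarbonate exchanger Slc4a3 ran from -0.32 to -0.14 and then from -0.22 to 0.1 (0.184 ± 0.0833, SE), and with the run of array numbers as a block, described further on, it differed by 0.122 (unadjusted p = 0.101 in limma). Both groups overlapped for each gene. To 6 months, Slc39a11 differed by 0.313 ± 0.12 (SE), from a range of -1.7 to -1.25 at 17-21 days to one of -1.64 to -0.62. Slc37a3 differed by -0.206 ± 0.0799 (SE) and the nucleoside transporter Slc28a3 by -0.218 ± 0.103 (SE), the latter from 0.37 to 0.54 at 17-21 days to -0.11 to 0.53 at 6 months. Limma adjusted p of these 3 were 0.36, 0.372 and 0.457. Beside these values, the Purkinje marker Car8 differed by 0.29 and Calb1 by -0.16 in the same comparison, at limma adjusted p of 0.3 and 0.442. Their part in the result was not tested.

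The calls in young mice rested on single males, and so did the size of the difference for some of the genes. There were 2 males of 17-21 days, and the first, whose array had the lowest median correlation of those kept (0.921), had the lowest Slc7a7, Slc6a8, Slc22a17, Slc35c2 and Slc39a11 of its age. Without the second male, so that the first stood alone for its sex, limma called 628 rows and 4 solute carriers between 17-21 and 33-44 days. These were Slc22a17, the lipocalin-2 receptor (0.452 ± 0.135, SE; adjusted p = 0.0246), Slc35c2 (0.252 ± 0.0766; 0.0273), Slc6a8 (0.269 ± 0.0877; 0.0443) and Slc44a1 (-0.196 ± 0.0641; 0.0451). To 6 months it then called 572 rows and 3 solute carriers, Slc35c2 (0.26 ± 0.0685, SE; adjusted p = 0.00754), Slc22a17 (0.38 ± 0.121; 0.0393) and Slc7a7 (0.41 ± 0.132; 0.0437). In that fit the lone male is assumed to vary like the other groups. Without the first male instead, limma called 1 row and 0 solute carriers in each comparison. Slc22a17 then differed by 0.0275 between 17-21 and 33-44 days, Slc35c2 by -0.0575, Slc6a8 by 0.0642, Slc44a1 by 0.0112 and Slc7a7 by 0.158. To 6 months Slc7a7 then differed by 0.135 and Slc37a3 by -0.134. Other leading genes moved less without the first male. To 6 months Slc39a11 differed by 0.291 (0.313 with all mice) and Slc28a3 by -0.193 (-0.218 with all mice). Slc4a3 differed by 0.204 between 17-21 and 33-44 days (0.184 with all mice). With both males Slc22a17 read -0.03, -0.23 and -0.12 in females and -0.59 and 0.26 in males of 17-21 days, and Slc35c2 1.01, 0.81 and 1.1 in females and 0.36 and 0.98 in males. At 33-44 days Slc22a17 ran from -0.43 to 0.34 and Slc35c2 from 0.72 to 1.01, so the first male lay below every mouse of that age and the second within their range.

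**Figure D4:**
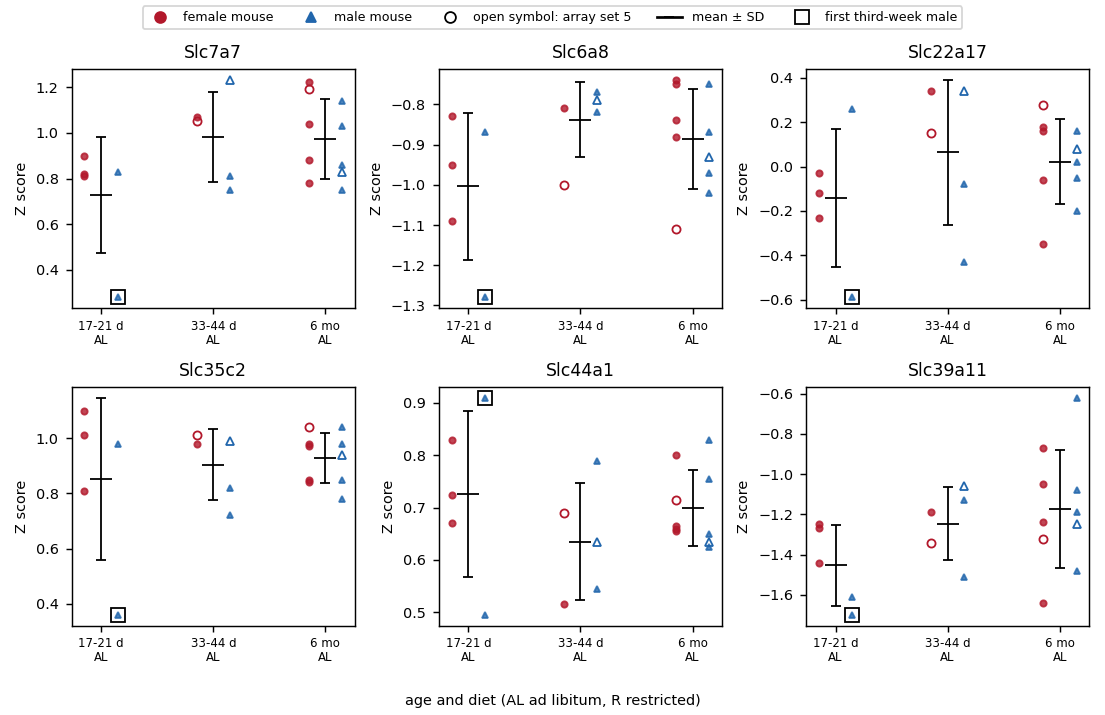
Z scores by mouse of 6 solute carriers at 17-21 days, 33-44 days and 6 months in AL mice (circles, females; triangles, males; open symbols, the fifth run of array numbers; black bars, mean ± SD). The square marks the first male of 17-21 days, which is the lowest mouse of its age for 5 of the genes and the highest for Slc44a1.

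By thresholds of the kind the study used (a Z-ratio of at least 1.5 in size, an average of the pair above 0 and an unadjusted p under 0.05, here from limma, without the analysis of variance that followed in the study), no solute carrier passed in any comparison of adult mice. Of all rows, 0.116%, 0.475% and 0.771% passed from 6 to 16, 6 to 24 and 16 to 24 months in AL mice, and 0.45%, 0.09% and 0.424% in CR mice. Between diets 0.0257%, 0.668% and 0.321% passed at 6, 16 and 24 months, and 0.0643% for the diet difference in the change with age. Slc7a7 passed between 17-21 and 33-44 days (4.1% of all rows did), and Slc7a7 and Slc28a3 passed between 17-21 days and 6 months (4.07%), and none passed from 33-44 days to 6 months (0.398%). No solute carrier had groups that did not overlap in any of the comparisons of 2 conditions, while 33 rows (0.424%), 3 rows (0.0386%) and 1 row (0.0129%) did between 17-21 and 33-44 days, between 17-21 days and 6 months, and between 16 and 24 months in CR mice. Over all comparisons, 16 of 845 tests of solute carriers (1.89%) had an unadjusted p under 0.05, against 3.48% of the tests of all rows. These came from 13 genes, 3 of which (Slc30a9, Slc6a8 and Slc7a7) had 2 each, and 52 genes had none. The 2 of Slc30a9 shared the CR mice of 24 months, and the 2 of Slc7a7 shared the mice of 17-21 days.

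Some solute carriers varied with the run of array numbers to which a mouse belonged. The labels number the arrays, and the numbers fall into 5 runs in which no group has more than 1 mouse. As the distance between the highest and lowest run, after taking out group means, the median solute carrier varied by 0.198 (0.193 over all rows), beside a median range of 0.169 between the means of the 8 conditions. Slc17a6 varied most, by 0.643 between runs and 0.422 between conditions. Its median was 0.37, 0.43, 0.23, 0.205 and -0.11 in runs 1 to 5, and in the fifth its 12 arrays ran from -1.04 to 0.35. The fifth run was lowest and the second highest also for Slc10a6, a carrier of sulphated steroids, whose medians were -0.49, -0.325, -0.54, -0.785 and -0.985, and for the Golgi zinc carrier Slc30a7 (medians from 0.69 to 0.165) and the zinc and manganese carrier Slc39a8 (0.945 to 0.48). These 4 genes were also lower at 33-44 than at 17-21 days, by -0.259 ± 0.219 (SE) for Slc17a6, -0.399 ± 0.209 for Slc10a6, -0.26 ± 0.176 for Slc30a7 and -0.21 ± 0.162 for Slc39a8. With the run as a block the values became -0.0203, -0.22, -0.0913 and -0.0692. The fifth run held 2 of the 5 mice of 33-44 days and 0 of those of 17-21 days. Other differences grew with the run as a block. Between diets (CR minus AL), Slc17a6 at 24 months went from -0.215 to -0.276 (unadjusted p = 0.0261 in limma, adjusted p = 0.993). Slc10a6 at 16 months went from 0.16 to 0.242, and Slc6a8 between 17-21 and 33-44 days from 0.167 to 0.204. In that fit limma still called 0 solute carriers in every comparison.

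**Figure D5:**
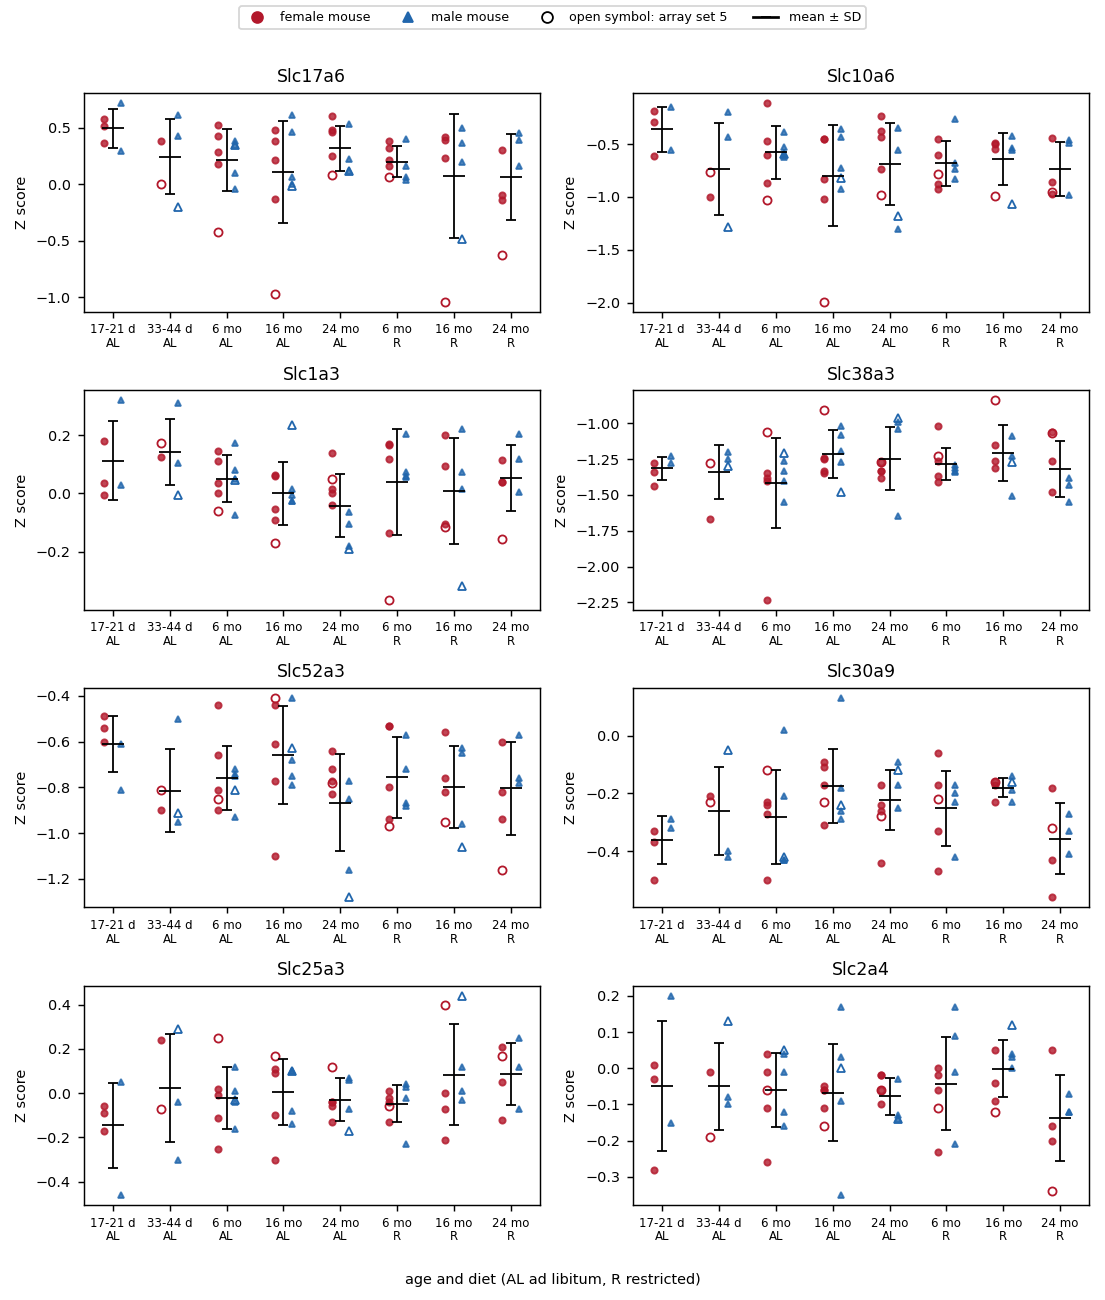
Z scores by mouse of 8 solute carriers in the 8 conditions (circles, females; triangles, males; open symbols, arrays of the fifth run; black bars, mean ± SD of the kept mice). In the comparisons made, the groups overlap for every gene, and the lowest arrays of Slc17a6 and Slc10a6 are open symbols.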

How the data were processed

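RNA of 66 cerebella was hybridized to nylon filters, 1 mouse per filter. The deposited values are scores: Z scores that the authors computed within each array (mean 0 and SD 1 over 8448 probes, 2 decimals). The sources used here do not say if logarithms or a background correction came before. A common shift of every probe is lost by this scaling. The values hold no depth or background, so the number of arrays and their spread limit the precision. Gene symbols came from the platform annotation, with 4875 probes carrying 1 symbol, 224 several and 3349 none. All 65 genes matched a reference table of mouse genes by ID and symbol. One solute carrier is not reported here. Probes of a gene were averaged, and every other probe was a row of its own (7782 rows). Arrays with a median correlation under 0.9 with the others were left out (3 of 66).

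A linear model with a mean for each group was fitted to all rows with limma (version 3.58.1, in R 4.3.3; eBayes moderation, 47 residual degrees of freedom). Each of the 13 comparisons gave females and males equal weight. Tests were two-sided, with Benjamini-Hochberg adjustment over all rows, and a gene was called at an adjusted p under 0.05. No pair of arrays was identical (highest correlation 0.988). The script was tested on simulated data. The Z-ratio sets a gene's difference in mean Z score against the SD that such differences had across rows. Named were called genes or, where none was called, the 3 with the smallest p in a comparison, the highest and lowest of each class, the member of each class with the widest spread between groups, and 7 measured genes of a list of 25 carriers well known in cerebellum. Genes raised for single arrays or for runs of array numbers were chosen after their values were seen. The genes, classes, lists and left-out arrays were chosen with earlier results of these data known. Alternatives were all 66 arrays, a correction for position in the probe list, the array run as a block, quantile normalization and rows above 0. Further ones were array weights, the brightest probe, females alone, the Z-ratio thresholds (without the study's further analysis of variance) and leaving out each array.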

Additional observations from a re-analysis of the deposited data

Results flagged for a closer look

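In 5 of 70 pairs of a named gene and a condition, 1 mouse stood apart from the others by Dixon's criterion, and chance gives about 1 in 20. Slc38a3 read -2.23 in a female of 6 months AL (replicate 2), where the nearest of 10 mice read -1.55. Slc30a6 read -1.33 in a female of 16 months AL (replicate 5), with the nearest at -0.74. Outside the 70 pairs, the same female had the lowest Slc10a6 (-1.99), Slc17a6 (-0.97), Slc30a7 (-0.8) and Slc39a8 (-0.29) of its group. Slc40a1 read 0.69 in a male of 6 months CR (replicate 1), with the nearest of 9 mice at 0.34. Slc7a7 read 0.28 in the first male of 17-21 days, with the nearest of 5 mice at 0.81. Slc6a8 read -1 in a female of 33-44 days (replicate 2), with the nearest at -0.82.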

How the results depend on the processing

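Limma called 0 solute carriers in all 13 comparisons, and 0 again in each comparison with all 66 arrays, the position correction (alone or with all arrays), the array run as a block, quantile normalization, rows above 0 (23 of the 65 genes), array weights, the brightest probe and, in the comparisons with 24-month CR mice, females alone. By the Z-ratio thresholds 1 passed between 17-21 and 33-44 days and 2 between 17-21 days and 6 months. Leaving out each array in turn gave 0 to 4 and 0 to 3 in these comparisons, the higher values without the second male of 17-21 days, and 0 in all others. Of 2753 alternative values for the 39 named pairs of gene and comparison, 2750 kept their direction and side of the threshold and 2 passed it (Slc6a8 and Slc7a7, without that male). The remaining one reversed: Slc1a3 between diets at 24 months, 0.111 in all mice and -0.023 in females alone. The cause was not tested. Most of the 2753 values came from leaving out 1 array at a time. An array outside the compared groups cannot change a difference, so in those fits the direction was fixed beforehand. Counts at an unadjusted p under 0.05 moved more: with array weights 11 solute carriers reached it from 6 to 24 months in AL mice (0 without; 16.5% of all rows with weights) and 11 from 16 to 24 months in CR mice (2 without; 14.9% of all rows). Over the 13 comparisons these counts ran from 2 to 11, and the shares of all rows from 3.71% to 16.5%. In size, 27 of the 39 pairs moved by over 1.5 times under at least 1 setting. No paired analysis was possible because the labels give no replicate numbers shared between groups, and the runs of array numbers were fitted as a block in its place. The median 95% interval of a solute carrier was the difference ± 0.146 to 0.17 Z units between adult conditions and ± 0.224 for the diet difference in the change with age.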
